A study of Homo sapiens with 4 samples.

Results

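The BCL2 family decides at the mitochondrial outer membrane whether a stressed cell lives or dies. Its pro-survival proteins (BCL-2, BCL-xL, MCL-1) hold the pore-forming effectors BAX and BAK in check, and the BH3-only proteins (PUMA, NOXA, BIM, BMF, BID) either occupy the groove of the pro-survival proteins or engage the effectors directly. DNA damage is known to reach this balance through transcription of the NOXA and PUMA genes, through the short lifetime of MCL-1, and through the choice of splice sites in BCL2L1 and MCL1. The genes of the family followed here were chosen by name: BCL2, BCL2L1 (encoding BCL-xL), MCL1, BAX, BAK1, BBC3 (PUMA), PMAIP1 (NOXA), BCL2L11 (BIM), BMF and BID. They are 10 of 60605 genes in the files, and all 10 passed the filter on low values that left 22185 genes for testing.

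RNA was sequenced from OVCAR3, a line of high-grade serous ovarian carcinoma cells grown from malignant ascites. The compared groups were 2 libraries of cells given 1.7 µM etoposide, which traps topoisomerase II on broken DNA, for 24 h and 2 libraries of cells given its vehicle, DMSO. Cells of both groups had first been held in 100 ng/mL nocodazole, which stops cells in mitosis, for 16 h and then released for 3 h, so that no library shows cells without that arrest. The 2 libraries of a group are labelled as biological replicates of a single line, and a bulk level cannot tell fewer cells that express a gene from less RNA per cell.

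Values are FPKM, fragments scaled to the length of the transcript and to the depth of the library, summed over the transcripts of a gene. From the deposited coverage, the fragments behind them were estimated, in units of 1e6, at 39.9 and 48.9 in the etoposide libraries and 53.4 and 56.3 in the DMSO libraries. The cells carried the epithelial identity of the label: the 14 genes of a serous carcinoma list summed to 2243 and 2329 FPKM in the etoposide libraries and to 3243 and 2871 FPKM in the DMSO libraries, 12 of the 14 without overlap between the groups, as were 47.9% of all genes tested. Among these 12, EPCAM stood higher in etoposide, at 127 and 134 FPKM, against 124 and 124.5 FPKM in DMSO. Of the 7 leukocyte markers none averaged 1 FPKM, with MS4A1 at 0 in all libraries and sums of 1.30 and 1.38 FPKM in etoposide and 1.82 and 1.47 FPKM in DMSO. The 6 fibroblast markers summed to 8.20 and 8.02 FPKM in etoposide and 6.83 and 6.90 FPKM in DMSO, mostly from COL1A1, and the 4 endothelial markers to 5.16 and 5.06 FPKM in etoposide and 4.41 and 5.61 FPKM in DMSO, mostly from KDR.

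What the 10 proteins have in common is the BH3 helix, whose core is a leucine, any 3 residues, then glycine or alanine and aspartate. Those letters were searched in the main (MANE) protein of each gene and matched once in each of the 10. The same letters occur in 25.2% of 19061 MANE proteins, so that a match on its own is a description and marks no family. The coding bases of the core are printed because the transcripts described further on differ in whether they keep them; the capitals mark the codons of the glycine or alanine and of the aspartate (GRCh38, read 5′ to 3′ on the gene's strand).
BCL2, chr18:63318361-63318378, minus strand: ctccgccaggccGGCGAC
BCL2L1, chr20:31721934-31721951, minus strand: ctgagggaggcaGGCGAC
MCL1, chr1:150578877-150578894, minus strand: ttacgacgggttGGGGAT
BAX, chr19:48955787-48955804, plus strand: ctcaagcgcatcGGGGAC
BAK1, chr6:33575399-33575416, minus strand: ctcgccatcatcGGGGAC
BBC3, chr19:47226591-47226608, minus strand: ctgcggcggatgGCGGAC
PMAIP1, chr18:59902673-59902690, plus strand: ctcaggagatttGGAGAC
BCL2L11, chr2:111150103-111150120, plus strand: ttgcggcgtattGGAGAC
BMF, chr15:40104207-40104224, minus strand: cttcagtgcattGCAGAC
BID, chr22:17739427-17739444, minus strand: ctcgcccaggtcGGGGAC
BBC3 and BMF carry the alanine codon and the other 8 carry glycine.

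The family's summed FPKM in these cells was led by the pro-survival genes MCL1 and BCL2L1. Most of the MCL1 sum was assigned to transcripts with no annotated protein, described further on. In etoposide treated cells the order of the mean levels was MCL1, BCL2L1, BID, BAX, BMF, BCL2L11, BAK1, PMAIP1, BBC3 and BCL2, and only BAX and BMF, as neighbours in that order, overlapped between their libraries. In DMSO treated cells BCL2L1 came before MCL1 and BMF before BAX, and only BCL2L1 and MCL1 overlapped. BCL2, the gene that names the family, was the lowest in both groups, at 0.679 ± 0.055 FPKM in etoposide and 0.521 ± 0.085 FPKM in DMSO (SD, n = 2 each).

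**Figure D1:**
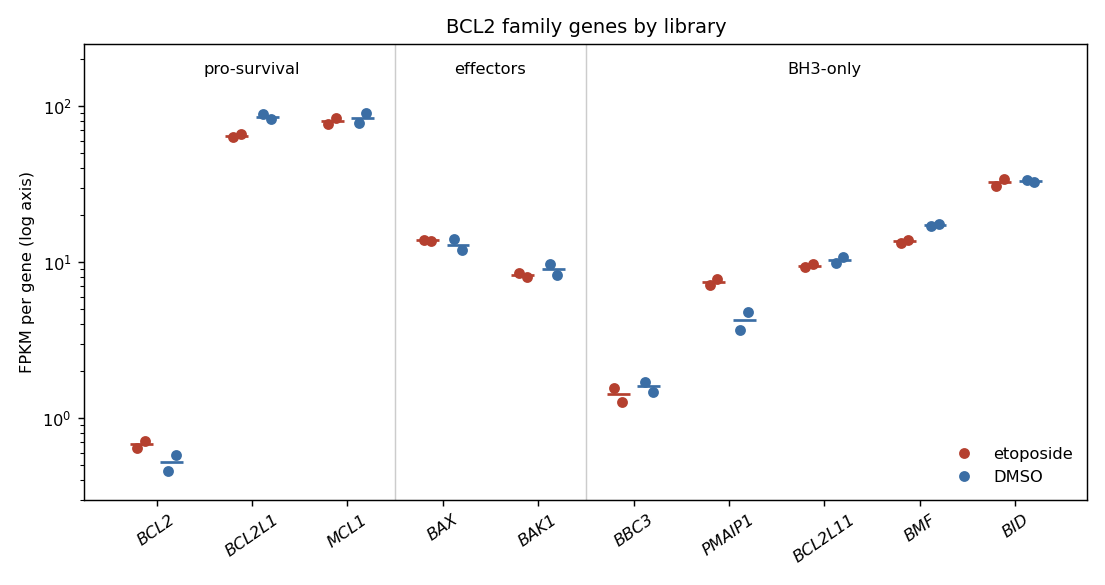
Level of each of the 10 genes in FPKM (log axis), with a point for each library and a bar at the mean of 2, etoposide left of DMSO. PMAIP1 at 7.16 and 7.79 FPKM in etoposide lies above its DMSO libraries at 3.66 and 4.82 FPKM, and BCL2L1 and BMF lie below theirs.

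No gene of the family passed the test of etoposide against DMSO. With limma and an adjusted p under 0.05, 0 of the 10 members were called, where 0 of all 22185 genes (0.0%) were. At an unadjusted p under 0.05, 1 member was higher (PMAIP1) and 2 were lower (BCL2L1 and BMF) in etoposide, beside 1566 higher genes (7.06%) and 1077 lower genes (4.85%) among all those tested; limma's voom on estimated fragments called 1 gene of all. The libraries of the groups did not overlap for 5 of the 10 members, against 47.9% of all genes, so that this count is close to the background. Of the 10 members, 3 had a positive and 7 a negative log2 fold change, with a median of −0.08 beside 0.04 over all genes tested.

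PMAIP1 (chr18:59899996-59904305, plus strand) had the largest fold change of the 10 genes. It encodes NOXA, a BH3-only protein that binds MCL-1 and hastens its removal, and its gene is known to be induced by DNA damage and other stress. Its level was 7.16 and 7.79 FPKM in the etoposide libraries, against 3.66 and 4.82 FPKM in the DMSO libraries. Both etoposide libraries exceeded both DMSO libraries, and the DMSO libraries lay further apart than the etoposide libraries. The log2 fold change was 0.82 ± 0.15 (SE), or 1.76-fold on the scale of FPKM + 0.1, with an unadjusted p of 0.00177 and an adjusted p of 0.269 (limma). Nearly all of it lay on the MANE transcript, which encodes the NOXA protein of 54 residues and had 6.71 and 7.0 FPKM in etoposide and 3.52 and 4.62 FPKM in DMSO. Without DMSO replicate 2, the higher of the DMSO pair, the log2 fold change was 1.01 with an adjusted p of 0.0333, and 1934 genes of all passed. That fit has a single DMSO library, which is assumed to vary like the etoposide pair, the only replicates left in it. PMAIP1 had the lowest GC content of the members, 37.7% over its transcripts. Across all genes the difference between the groups ran against GC content (Spearman −0.289, over genes, which are not independent). The difference between the DMSO libraries, replicate 2 minus replicate 1, did so too (Spearman −0.340), so that such a trend also arose without etoposide. Once length and GC content were corrected for, the log2 fold change of PMAIP1 was 0.71, with an adjusted p of 0.110 (limma).

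Set against MCL1, the mRNA of its partner, PMAIP1 stood at 9.27 and 9.25 FPKM per 100 FPKM of MCL1 in etoposide and at 4.69 and 5.37 in DMSO. The etoposide libraries were almost equal in this ratio and both above DMSO. The ratio was taken after the levels had been seen and has no test of its own. Its MCL1 sum includes transcripts with no annotated protein. These were assigned 93.3% and 90.9% of MCL1 in etoposide and 85.6% and 86.7% in DMSO.

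The 5 genes with mean FPKM of at least 1 whose pattern over the 4 libraries was nearest to that of PMAIP1, out of 13558, were CEMIP2, SLFN13, THBS1, MET and ZBTB21, at Euclidean distances of 0.119 to 0.148 between centred log2 values. THBS1, for example, had 18.1 and 17.7 FPKM in etoposide and 8.39 and 11.7 FPKM in DMSO. With 4 libraries many genes can share such a pattern, and none of the 5 is a member of the family.

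BCL2L1 (chr20:31664452-31723989, minus strand) was the most abundant member whose groups lay apart. It encodes BCL-xL, which guards the outer membrane of many epithelial cells. It had 63.6 and 65.9 FPKM in the etoposide libraries and 88.8 and 82.3 FPKM in the DMSO libraries. The groups were clear of each other by more than the distance between the libraries of either group. The log2 fold change was −0.40 ± 0.08 (SE), 0.757-fold, with an unadjusted p of 0.0019 and an adjusted p of 0.269 (limma). Without DMSO replicate 2, where the etoposide pair holds the only replicates, it was −0.46 with an adjusted p of 0.0333, and with length and GC content corrected for it was −0.38 with an adjusted p of 0.0648. In the same libraries 8 of the 14 epithelial markers were lower at an unadjusted p under 0.05, against 4.85% of all genes. One of them, KRT8, a simple keratin, had 772 and 821 FPKM in etoposide and 1266 and 1055 FPKM in DMSO, and the part of this in the BCL2L1 difference was not tested.

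MCL1 (chr1:150560895-150579738, minus strand), the other abundant guardian, did not separate the groups in its summed FPKM. Its product is a short-lived protein whose level depends on constant synthesis. The gene had 77.2 and 84.3 FPKM in the etoposide libraries and 78.1 and 89.7 FPKM in the DMSO libraries, which overlap. The log2 fold change was −0.05 ± 0.10 (SE), with an adjusted p of 0.836, and its sign turned with TPM in place of FPKM (0.014). BCL2L1 relative to MCL1 was 82.3 and 78.1 FPKM per 100 FPKM of MCL1 in etoposide, against 114 and 91.8 in DMSO. Together with BCL2, BCL2L2 and BCL2L10, these pro-survival genes summed to 150 and 160 FPKM in etoposide and 176 and 181 FPKM in DMSO. BCL2L1 made 42.3% and 41.3% of that sum in etoposide and 50.4% and 45.5% in DMSO. MCL1, counted with its transcripts that have no annotated protein, made 51.4% and 52.8% in etoposide and 44.3% and 49.6% in DMSO.

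BCL2 itself had 0.640 and 0.718 FPKM in etoposide and 0.461 and 0.581 FPKM in DMSO. The libraries did not overlap, but the log2 fold change of 0.33 ± 0.20 (SE) had an adjusted p of 0.504 (limma).

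The effector genes did not separate the groups. BAX, whose product moves from the cytosol to the mitochondrion on activation, had 13.8 and 13.7 FPKM in etoposide and 14 and 11.9 FPKM in DMSO. BAK1, whose product sits in the outer membrane, had 8.56 and 8.08 FPKM in etoposide and 9.76 and 8.27 FPKM in DMSO. In both genes the libraries of the groups overlapped, and the log2 fold change was 0.09 ± 0.11 (SE) for BAX and −0.11 ± 0.11 (SE) for BAK1, with adjusted p of 0.725 for BAX and 0.695 for BAK1 (limma). Leaving out 1 DMSO library turned either sign: BAX was at −0.023 without DMSO replicate 2, and BAK1 at 0.0080 without DMSO replicate 1. A pseudogene of BAK1, BAK1P1, was listed at 0.787 and 0.563 FPKM in etoposide and 0.515 and 0.557 FPKM in DMSO, and reads shared between the copies could have been counted for either.

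The other 4 BH3-only members had log2 fold changes below 0, of which that of BID turned sign with TPM (0.032). BMF, whose protein is tied to the cytoskeleton until released, had 13.2 and 13.9 FPKM in etoposide and 17 and 17.4 FPKM in DMSO. The groups lay apart, each with libraries close together, and the log2 fold change was −0.34 ± 0.08 (SE) with an unadjusted p of 0.00605 and an adjusted p of 0.311 (limma). Without DMSO replicate 2, again with replicates in etoposide only, the adjusted p of BMF was 0.0529. BCL2L11, which encodes BIM, an activator of BAX and BAK, had 9.27 and 9.67 FPKM in etoposide and 9.91 and 10.8 FPKM in DMSO, a log2 fold change of −0.13 ± 0.09 (SE) with an adjusted p of 0.582 (limma). BBC3 had 1.57 and 1.28 FPKM in etoposide and 1.71 and 1.48 FPKM in DMSO. The gene of PUMA is, like that of NOXA, known to be induced by DNA damage. The levels of its gene overlapped between the groups, with a log2 fold change of −0.16 ± 0.16 (SE) and an adjusted p of 0.693. The BBC3 sum includes transcripts with no annotated protein, described further on. BID, whose product is cut by caspase-8 to link death receptors to the mitochondrion, had 30.9 and 33.9 FPKM in etoposide and 33.6 and 32.8 FPKM in DMSO, with a log2 fold change of −0.04 ± 0.08 (SE) and an adjusted p of 0.874.

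With BAD, BIK and HRK, the 8 BH3-only genes summed to 87.3 and 91.9 FPKM in etoposide and 95.9 and 91.6 FPKM in DMSO. These sums overlapped between the groups.

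**Figure D2:**
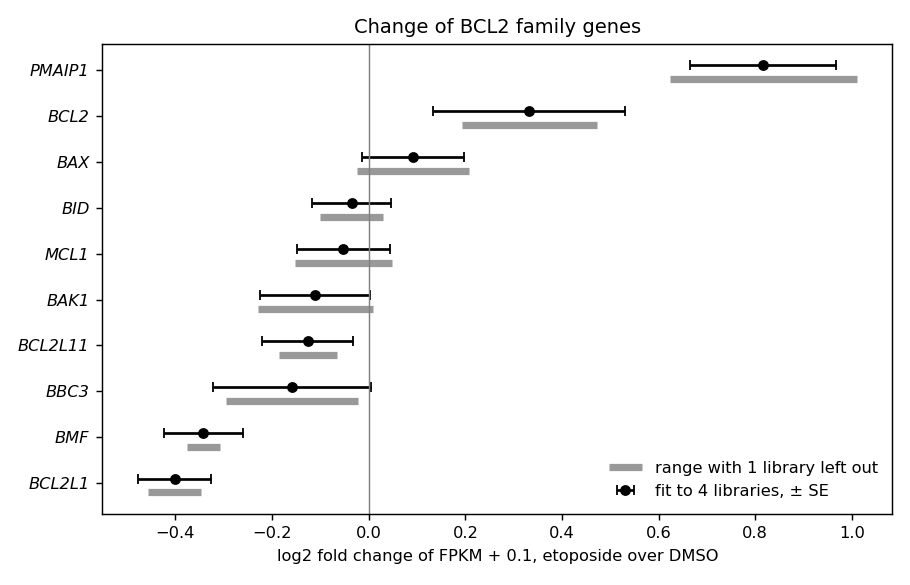
Log2 fold change of FPKM + 0.1, etoposide over DMSO, for each of the 10 genes, with the standard error of the fit (bars) and the range when 1 library was left out (grey). PMAIP1 stays at 0.62 or above and BCL2L1 at −0.35 or below, while the ranges of BAX, BID, MCL1 and BAK1 cross 0.

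BCL2L1 makes a long and a short protein from a choice of donor in its first coding exon. The short form, BCL-xS, lacks 63 residues, including parts of the groove, keeps BH3 and opposes BCL-xL. The short donor lies 189 bases upstream of the long one. Both are printed because the 2 isoforms are told apart by them; capitals mark the last 3 bases of the exon and the first 6 of the intron (GRCh38, minus strand).
BCL2L1 long donor, chr20:31721640-31721669: gagaacggcggcTGGGTAAGAaccaagccc
BCL2L1 short donor, chr20:31721829-31721858: cagagctttgaaCAGGTAGTGaatgaactc
The BH3 core of BCL2L1 lies upstream of both donors.

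BCL-xL transcripts dominated in every library. Of the 15 annotated transcripts of BCL2L1, 10 encode BCL-xL of 233 residues, and together they had 52.4 and 55.3 FPKM in the etoposide libraries and 73.1 and 71.2 FPKM in the DMSO libraries. They made 82.4% and 83.9% of the gene in etoposide and 82.3% and 86.5% in DMSO, so that the long form followed the gene as a whole. The 2 transcripts of BCL-xS (170 residues) summed to 3.28 and 2.01 FPKM in etoposide and 4.89 and 3.41 FPKM in DMSO. The BCL-xS share of the gene was 5.16% and 3.05% in etoposide and 5.51% and 4.15% in DMSO. These shares overlapped, with means of 4.10% ± 1.49 and 4.83% ± 0.97 (SD, n = 2 each), and an exact two-sided permutation test gave p = 0.667, where 2 against 2 libraries cannot go below 0.333.

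Main transcripts were those with at least 10% of their gene's FPKM on average, which were 3 for BCL2L1. BCL2L1-201, the MANE transcript, had 22.3 and 26.9 FPKM in etoposide and 35 and 29.0 FPKM in DMSO. It was lower in both etoposide libraries, with a log2 fold change of −0.38 ± 0.17 (SE) and an adjusted p of 0.848 over 71340 transcripts (limma). BCL2L1-210, with the same protein, had 24.3 and 19.5 FPKM in etoposide and 25.8 and 20.6 FPKM in DMSO, and BCL2L1-215, annotated for nonsense-mediated decay, had 7.50 and 7.38 FPKM in etoposide and 8.52 and 6.74 FPKM in DMSO. Both overlapped between the groups, with a log2 fold change of −0.08 ± 0.19 (SE) for BCL2L1-210 and −0.03 ± 0.18 (SE) for BCL2L1-215. The other 12 transcripts summed to 9.46 and 12.1 FPKM in etoposide and 19.5 and 26.0 FPKM in DMSO. Among these, the BCL-xS transcripts are named after their values were seen. BCL2L1-202 had 0.207 and 0.257 FPKM in etoposide and 2.22 and 1.89 FPKM in DMSO. BCL2L1-205 had 3.07 and 1.75 FPKM in etoposide and 2.67 and 1.52 FPKM in DMSO. The low BCL2L1-202 in etoposide was thus not shared by the other transcript of the same protein.

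No transcript of any gene passed the transcript test: 0 of 71340 (0.0%) had an adjusted p under 0.05 with limma, and 4121 (5.78%) had an unadjusted p under 0.05. Of the 101 transcripts of the 10 genes 64 were tested, and 7 of them had an unadjusted p under 0.05. The libraries of the groups did not overlap for 24 of the 64, where 37.6% of all transcripts tested were apart. Both counts of the family's transcripts can be read against those shares.

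MCL1 has 3 coding exons, and a transcript that skips the middle one, of 248 bases, encodes a short protein with the BH3 core but without the membrane anchor, which acts against the full protein. The intron after the middle exon, of 752 bases, is kept in one annotated transcript. Its 2 ends are printed because most of the gene's FPKM was assigned to that transcript; capitals mark the last 3 bases of the exon and the first 6 of the intron at the donor, and the last 2 bases of the intron at the acceptor (GRCh38, minus strand).
MCL1 middle coding exon donor, chr1:150578229-150578258: aaacaaagaggcTGGGTAAGTttgccttaa
MCL1 last coding exon acceptor, chr1:150577477-150577506: ttttttgttttctAGgatgggtttgtggag

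The transcript that keeps this intron, MCL1-206, was the only main transcript of the gene. It had 65.7 and 70.8 FPKM in the etoposide libraries and 62.8 and 71.5 FPKM in the DMSO libraries, with a log2 fold change of 0.03 ± 0.11 (SE) and an adjusted p of 0.972 (limma). Its share of the gene was 85.1% and 84.0% in etoposide and 80.4% and 79.7% in DMSO. The shares did not overlap, and the exact two-sided permutation test gave 0.333, the smallest p it can give. The files hold no reads across junctions or within the intron, so that the share rests on how StringTie divided reads among transcripts that have most of their sequence in common. The MANE transcript MCL1-202, which encodes the full protein of 350 residues, averaged 9.61% of the gene and so fell just short of a main transcript, as BCL2L1-215 with 10.2% was just inside. It had 4.04 and 6.76 FPKM in etoposide and 10.1 and 11.0 FPKM in DMSO, or 5.23% and 8.02% of the gene in etoposide and 12.9% and 12.3% in DMSO. It lay lower in both etoposide libraries, with a log2 fold change of −0.997 ± 0.30 (SE). The unadjusted p of MCL1-202 was 0.0352 and its adjusted p 0.822 (limma). The total of the gene did not follow this transcript. The 7 transcripts other than MCL1-206 summed to 11.5 and 13.5 FPKM in etoposide and 15.3 and 18.2 FPKM in DMSO.

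The short MCL1 transcript without the middle exon was scarce. It had 0.906 and 0.644 FPKM in etoposide and 0.792 and 0.730 FPKM in DMSO, which was 1.17% and 0.764% of the gene in etoposide and 1.01% and 0.814% in DMSO. The shares overlapped, with an exact two-sided permutation p of 1.0.

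**Figure D3:**
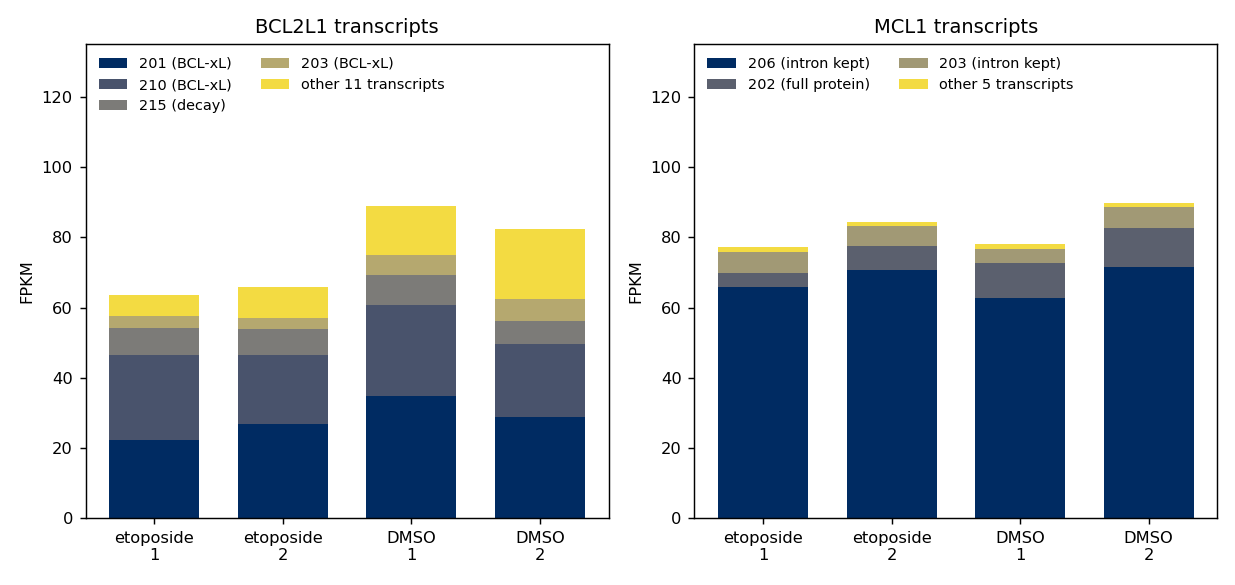
FPKM assigned to the transcripts of BCL2L1 (left) and MCL1 (right) in each library, stacked from 0, etoposide left of DMSO. The BCL2L1 bars reach 63.6 and 65.9 FPKM in etoposide and 88.8 and 82.3 FPKM in DMSO, and in every MCL1 bar the intron-keeping transcript 206 takes at least 79.7%.

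Transcripts that encode the BH3 core made at least 94.5% of BCL2, BCL2L1, BAK1, BMF and PMAIP1 in each library. In MCL1, they made 6.68% and 9.13% in etoposide and 14.4% and 13.3% in DMSO, without overlap, the rest being on transcripts with no annotated protein. In BID, they made 82.3% and 66.1% in etoposide and 56.9% and 56.1% in DMSO, without overlap. These differences were noticed in the data. In BID, transcripts of the full protein of 195 residues had 18.5 and 18.5 FPKM in etoposide and 14.5 and 12.7 FPKM in DMSO. A protein of 241 residues, counted with the core, had 6.82 and 3.91 FPKM in etoposide and 3.47 and 4.77 FPKM in DMSO. A protein of 137 residues, also with the core, had 0.145 and 0 FPKM in etoposide and 1.18 and 0.864 FPKM in DMSO. A protein of 99 residues that lacks the core had 4.59 and 9.78 FPKM in etoposide and 11.9 and 12.5 FPKM in DMSO. The sum of the gene overlapped between the groups, as given above. For BCL2L11 the division was not stable between replicates. The transcript of the MANE protein of 198 residues made 80.1% and 26.4% of the gene in etoposide and 86.7% and 21.8% in DMSO, with replicate 1 high and replicate 2 low in both groups, while the gene's sum varied far less. BCL2L11 transcripts absent from GENCODE 44 made 13.7% and 66.5% in etoposide and 10.4% and 73.5% in DMSO. Whether these encode the BH3 core was not assessed. BMF was divided unevenly as well: its MANE transcript had 7.13 and 5.69 FPKM in etoposide and 14.7 and 6.28 FPKM in DMSO. All 4 transcripts of the same BMF protein of 184 residues summed to 12.9 and 13.4 FPKM in etoposide and 16.5 and 16.9 FPKM in DMSO.

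The libraries were counted without a strand option, so that some reads of overlapping genes on the opposite strand may not have been told apart from those of a member. The antisense gene ABALON, which overlaps BCL2L1, had 1.66 and 1.28 FPKM in etoposide and 1.20 and 1.43 FPKM in DMSO, far below BCL2L1. MIR4435-2HG, whose span overlaps that of BCL2L11 on the opposite strand, had 14.3 and 15.2 FPKM in etoposide and 15.9 and 15 FPKM in DMSO, a level above that of BCL2L11 itself. PMAIP1 and BAX had no overlapping gene in the annotation of the files.

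Of the other BCL2 family genes, 7 averaged at least 1 FPKM. BCL2L13, a mitochondrial protein of the family that serves as a mitophagy receptor, had 26.8 and 29.6 FPKM in etoposide and 25.2 and 26.2 FPKM in DMSO. BAD, a BH3-only protein governed by phosphorylation, had 24.2 and 24.5 FPKM in etoposide and 29.4 and 23.7 FPKM in DMSO. BNIP3L, another mitophagy receptor, had 20.8 and 21.3 FPKM in etoposide and 18.2 and 21.1 FPKM in DMSO. Its relative BNIP3 had 10.8 and 11.3 FPKM in etoposide and 10.2 and 10.1 FPKM in DMSO. Of these, the levels of BCL2L13 and BNIP3 did not overlap between the groups, and those of BOK, given next, did not either. Among the 9 genes of this list that were tested, 5 were apart, beside 47.9% of all genes. BCL2L12 had 9.65 and 8.77 FPKM in etoposide and 10.3 and 7.93 FPKM in DMSO, and BOK, an effector relative, 1.94 and 1.87 FPKM in etoposide and 1.70 and 1.80 FPKM in DMSO. BCL2L2, encoding the pro-survival BCL-w, was level at 8.68 and 8.70 FPKM in etoposide and 8.77 and 8.39 FPKM in DMSO. Of the 13 genes of this list, BCL2A1 was not found by name and enters no sum. The 9 genes above the filter on low values were tested and 0 passed. HRK, a BH3-only gene named after its values were seen, was the 1 gene with an unadjusted p under 0.05 (limma). It had 0.361 and 0.425 FPKM in etoposide and 0.224 and 0.245 FPKM in DMSO. The median log2 fold change of the 9 was 0.11.

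Downstream of the pore, the 17 genes of the mitochondrial pathway, from cytochrome c to the caspases, were all tested and 0 passed. Of these, 8 had a positive and 9 a negative log2 fold change, with a median of −0.0033. At an unadjusted p under 0.05 stood CASP2, an initiator caspase linked to DNA damage, with 12.9 and 13.4 FPKM in etoposide and 10.6 and 11.1 FPKM in DMSO, and ENDOG, a mitochondrial nuclease, with 3.33 and 3.58 FPKM in etoposide and 5.10 and 4.42 FPKM in DMSO. APAF1, the scaffold of the apoptosome, had 4.43 and 4.08 FPKM in etoposide and 2.61 and 3.85 FPKM in DMSO, with an adjusted p of 0.445 (limma).

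Upstream, 21 genes known to be induced by DNA damage were tested and 0 passed, with 4 higher and 1 lower at an unadjusted p under 0.05, beside 7.06% and 4.85% of all genes. A positive log2 fold change was found in 17 of the 21, with a median of 0.15 beside 0.04 over all genes. The death receptor gene FAS had 3.24 and 4.26 FPKM in etoposide and 2.12 and 2.60 FPKM in DMSO. CCNG1, a cyclin that feeds back on MDM2, had 29.8 and 29.8 FPKM in etoposide and 24.0 and 25.9 FPKM in DMSO, and RRM2B, a ribonucleotide reductase subunit, had 5.63 and 6.33 FPKM in etoposide and 3.64 and 4.81 FPKM in DMSO. CDKN1A, a cyclin-dependent kinase inhibitor, was level at 1.70 and 1.80 FPKM in etoposide and 1.90 and 1.69 FPKM in DMSO; it was named after its values were seen. Of 10 transcription factors of BH3-only genes 9 were tested and 0 passed, with a median log2 fold change of 0.16. MYC had 8.18 and 9.45 FPKM in etoposide and 11.8 and 11.8 FPKM in DMSO, and ATF3, a stress factor, had 5.58 and 6.57 FPKM in etoposide and 4.48 and 5.14 FPKM in DMSO. These were the 2 with an unadjusted p under 0.05. DDIT3, a factor of endoplasmic reticulum stress, had 15.4 and 17.6 FPKM in etoposide and 20.0 and 18.5 FPKM in DMSO.

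Genes that act on the MCL-1 protein or on the splicing of BCL2L1 and MCL1 were tested too. All 10 genes of MCL-1 turnover were tested and 0 passed (median log2 fold change 0.19). USP13, a deubiquitinase, had 5.74 and 6.10 FPKM in etoposide and 4.23 and 4.92 FPKM in DMSO. FBXW7, a ubiquitin ligase subunit, had 4.72 and 4.56 FPKM in etoposide and 3.42 and 4.37 FPKM in DMSO, and CUL5, a cullin, had 5.03 and 4.97 FPKM in etoposide and 3.24 and 4.77 FPKM in DMSO. Of the 19 splicing regulators 0 passed, and 0 had an unadjusted p under 0.05, with a median log2 fold change of −0.01. The 3 with the smallest p were PTBP1 at 102 and 102 FPKM in etoposide and 118 and 111 FPKM in DMSO, RBM25 at 30.5 and 29.0 FPKM in etoposide and 25.0 and 28.0 FPKM in DMSO, and SF3B1 at 41.9 and 41.4 FPKM in etoposide and 31.7 and 40.1 FPKM in DMSO.

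**Figure D4:**
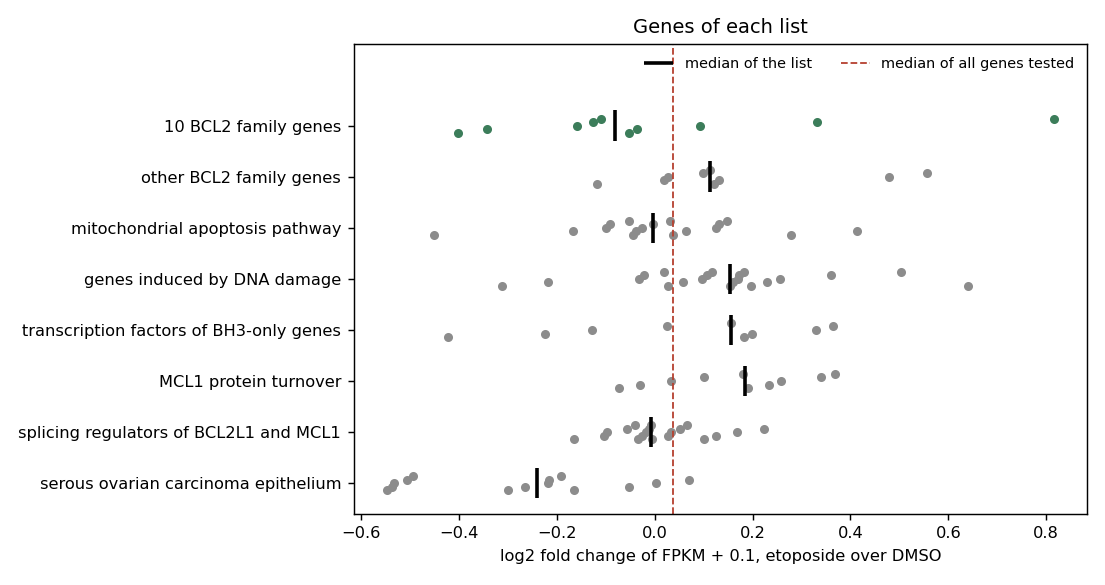
Log2 fold change of FPKM + 0.1, etoposide over DMSO, of each gene tested in 8 lists, with the median of each list (bar) and of all genes tested (dashed line, 0.04). The 10 family genes run from −0.40 for BCL2L1 to 0.82 for PMAIP1, and the epithelial list has the lowest median, −0.24.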

How the data were processed

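Libraries of 4 OVCAR3 cultures were sequenced as paired reads after a stranded mRNA kit. HISAT2 placed the reads on GRCh38 and SAMtools sorted the alignments; from these the authors made transcript values with StringTie 2.1.7 and the Ensembl 104 annotation, giving no strand option. The deposited files give a coverage, an FPKM and a TPM for each transcript and exon coverage; they hold no counts. FPKM were summed per gene here. The test was that of limma (3.58.1, under R 4.3.3), two-sided, applied to log2(FPKM + 0.1) of features whose mean FPKM reached 0.1. It used a variance trend, robust fitting and Benjamini-Hochberg adjustment over all features. It was tested on simulated data with independent normal noise, and the outcome is not reported here. Protein lengths and transcript types came from GENCODE 44, sequence from GRCh38. Estimated fragments are coverage times length over 200 bases. Shares were compared by exact permutation tests in scipy 1.17.1; pandas 2.3.3 and matplotlib 3.10.9 made tables and figures. The limma p-values rest on the spread between 2 libraries per group, moderated by the spread of all features tested.

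The members and lists were chosen with earlier results of these data known. Named genes were all 10 members, other family genes averaging 1 FPKM or more, and up to 3 genes of each other list with the smallest unadjusted p; EPCAM, MS4A1, HRK, BIK, BCL2L10, BCL2L2-PABPN1, BAK1P1 and CDKN1A fall outside this rule and were named after their values were seen. The alternatives were pseudocounts of 1 and 0.01, no filter and a filter at 1 FPKM, TPM, median scaling, voom on estimated fragments, no variance trend, a correction for length and GC content (loess, span 0.3), a block for the replicate number, and the omission of each library in turn. For the shares, they were TPM, bases in place of FPKM, and the same omissions. Some genes of the lists are not reported here. Reads and the other experiments were not used.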

Additional observations from a re-analysis of the deposited data

How the results depend on the processing

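The count of genes with an adjusted p under 0.05 was 0 under the pseudocounts, filters, TPM, median scaling and the fit with no variance trend, 1 with voom on estimated fragments, 6 with length and GC content corrected for, and 5 to 1934 when 1 library was left out, the highest without DMSO replicate 2; the count of transcripts was 0 under all alternatives run. The cause was not tested. Of 193 alternative values of the 10 genes and 4 main transcripts, 176 kept direction and call, 15 turned sign and 2 passed the threshold (PMAIP1 and BCL2L1 without DMSO replicate 2). With 1 library left out the log2 fold change ran from 0.62 to 1.01 for PMAIP1, −0.46 to −0.35 for BCL2L1, −0.15 to 0.047 for MCL1, −0.023 to 0.21 for BAX, −0.23 to 0.0080 for BAK1 and −0.10 to 0.030 for BID. It ran from −0.24 to 0.081 for BCL2L1-210, −0.19 to 0.14 for BCL2L1-215 and −0.068 to 0.12 for MCL1-206. Sign also turned with TPM for MCL1 (0.014), BID (0.032) and BCL2L1-215 (0.040), with voom for BID (0.061) and with median scaling for MCL1-206 (−0.024). The difference in the BCL-xS share, −0.726 percentage points, ran from −1.78 to 0.327 with 1 library left out, and that in the short MCL1 share, 0.054 points, from −0.150 to 0.258; these carry no test.

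Over gene sums, same-numbered libraries did not deviate together. The difference of replicate 1 minus replicate 2 in etoposide had a correlation of 0.0133 with that in DMSO, over the genes tested. The numbers were not taken to pair the libraries, and the correlation was not run on transcripts. With the replicate number as a block 0 genes passed, with or without the length and GC correction. In the block without that correction the adjusted p of PMAIP1 was 0.118 and that of BCL2L1 0.218 (limma). Fragments assigned to transcripts are known only as an estimate. The study's supplement reports the clusters sequenced per library, which were fewer in both etoposide libraries than in either DMSO library. Each fit without 1 library leaves a group with a single library, assumed to vary like the other group.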

Other observations

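BCL2L2-PABPN1, a readthrough gene that shares the exons of BCL2L2, was listed at 8.81 and 7.07 FPKM in etoposide and 13 and 3.27 FPKM in DMSO. The DMSO libraries lay on both sides of the etoposide libraries, and how reads were divided between this gene and BCL2L2 was not tested. BCL2L10 was listed at 0.074 and 0.044 FPKM in etoposide and at 0 in both DMSO libraries. BIK, a BH3-only gene, had 0.575 and 0.506 FPKM in etoposide and 0.387 and 0.333 FPKM in DMSO. BCL2L10 and BIK were named after their values were seen.

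BAX-204, annotated for nonsense-mediated decay, had 0.060 and 4.20 FPKM in etoposide and 2.25 and 0.153 FPKM in DMSO, so that libraries of 1 group differed more than the groups. The MANE transcript of BBC3, the 1 that encodes PUMA of 193 residues, made 61.9% and 90.3% of the gene in etoposide and 25.1% and 64.2% in DMSO, overlapping between the groups.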
